A study of Mus musculus with 5 samples.

Results

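The genes described here are 33 genes of the p53 response and of apoptosis. They were chosen by name for their known roles, with earlier results of these data known. They cover p53 with its regulators and target genes (18), the Bcl2 family (11), and caspases with their direct regulators (4). Each was read through the probe set that the platform annotation gives to that gene alone, taking the one with the highest mean over the 5 arrays. On that rule 31 of the 33 had a value, out of 18193 genes tested, and Trp53 and Bax were not analysed here. RNA came from sorted bone marrow cells of C57BL/6 mice, with 2 arrays from MSI2-inducible mice, in which the RNA-binding protein Musashi 2 can be switched on, and 3 from control rtTA mice, which carry the doxycycline-dependent transactivator. The labels do not give the driver of the transgene, the mice's age, or whether and for how long the transgene was induced. The sample labels describe stem and progenitor cells with Sca1 and Kit, whereas the text given for the whole series has Kit-positive cells lacking Sca1. The labels do not say whether each array stands for its own mouse, and the p-values here therefore rest on variation among arrays that could be technical.

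The transcription factor p53 is held at a low level by Mdm2, a ubiquitin ligase that is itself switched on by p53, and by its relative Mdm4. Stress such as DNA damage frees p53, which then switches on genes that halt the cell cycle, aid repair or start cell death. In the mitochondrial route of death, BH3-only proteins such as Puma (Bbc3), Noxa (Pmaip1) and Bim (Bcl2l11) block the survival proteins Bcl2, Bcl-xL (Bcl2l1) and Mcl1. The pore formers Bax and Bak1 then release cytochrome c, Apaf1 assembles with Casp9, and Xiap restrains the caspases. Death receptors such as Fas and Tnfrsf10b act through Casp8. In blood formation, Mcl1 and the p53 pathway are known to control the survival of stem cells.

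Upstream sequence is shown for 4 members: the 2 p53 targets with the largest differences whose arrays did not overlap, Plk2 and Gadd45a, the p53-driven ligase gene Mdm2, and Sesn1, the member with the lowest difference. Each run is the 250 bases before a RefSeq transcription start on GRCm38.p6, read 5′ to 3′ on the gene's strand. Capitals mark the CRE motif TGACGTCA in Plk2, and a match to the p53 half-site consensus in the other 3.
Plk2, chr13:110394794-110395043, plus strand: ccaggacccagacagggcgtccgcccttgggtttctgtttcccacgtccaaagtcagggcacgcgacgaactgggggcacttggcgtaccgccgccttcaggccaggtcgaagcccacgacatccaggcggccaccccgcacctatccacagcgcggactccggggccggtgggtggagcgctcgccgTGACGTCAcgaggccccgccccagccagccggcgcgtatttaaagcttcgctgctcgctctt
Gadd45a, chr6:67037408-67037657, minus strand: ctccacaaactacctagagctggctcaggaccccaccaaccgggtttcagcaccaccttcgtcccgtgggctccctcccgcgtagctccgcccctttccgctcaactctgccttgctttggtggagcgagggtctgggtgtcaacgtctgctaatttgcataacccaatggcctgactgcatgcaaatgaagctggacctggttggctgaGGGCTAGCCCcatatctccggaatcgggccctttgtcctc
Mdm2, chr10:117710759-117711008, minus strand: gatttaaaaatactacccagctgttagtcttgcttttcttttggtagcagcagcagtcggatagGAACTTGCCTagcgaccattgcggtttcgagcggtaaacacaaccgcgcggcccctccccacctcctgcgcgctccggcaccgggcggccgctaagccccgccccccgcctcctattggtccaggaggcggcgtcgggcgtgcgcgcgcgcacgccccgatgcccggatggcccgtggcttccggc
Sesn1, chr10:41887189-41887438, plus strand, one of its 2 listed starts: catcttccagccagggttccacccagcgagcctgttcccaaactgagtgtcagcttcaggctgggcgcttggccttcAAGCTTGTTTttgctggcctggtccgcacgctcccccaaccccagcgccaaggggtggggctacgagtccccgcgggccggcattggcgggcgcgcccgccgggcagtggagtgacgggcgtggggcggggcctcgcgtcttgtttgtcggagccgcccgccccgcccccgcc

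Both strands were searched. Among 37 windows of 25 measured members, the p53 half-site consensus matched in 5, those of Mdm2, Ccng1, Aen, Sesn1 and Gadd45a. The same consensus matched in 7.13% of all 32851 windows of that length. The CRE was found in 1 member window, that of Plk2, ending 55 bases before the start, and in 1.55% of all windows. No member window held both. These matches describe letters and are not evidence of binding.

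Each value is a log2 intensity, and each difference is the MSI2-inducible mean less the control rtTA mean. None of the 31 members passed limma's test at an adjusted p of 0.05 over all 18193 genes, where 4 genes (0.022%) passed, 3 of them higher (0.0165%) and 1 lower (0.0055%). An unadjusted limma p under 0.05 was reached by 4 members, all higher, against 5.64% of all genes in either direction, 2.87% as higher and 2.77% as lower. These were Plk2, Gadd45a, Bcl2l1 and Bbc3. Both MSI2-inducible arrays lay above all control arrays for 6 members (19.4%; 9.27% of all genes), namely Plk2, Gadd45a, Gtse1, Bcl2l1, Bbc3 and Casp9. Both lay below all control arrays for 3 members (9.68%; 9.39% of all genes), namely Sesn1, Trp53inp1 and Casp8. The difference was positive for 21 members and negative for 10, against 50.4% of all genes positive and 49.6% negative. The median difference was 0.19 over members and 0.0019 over all genes.

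**Figure D1:**
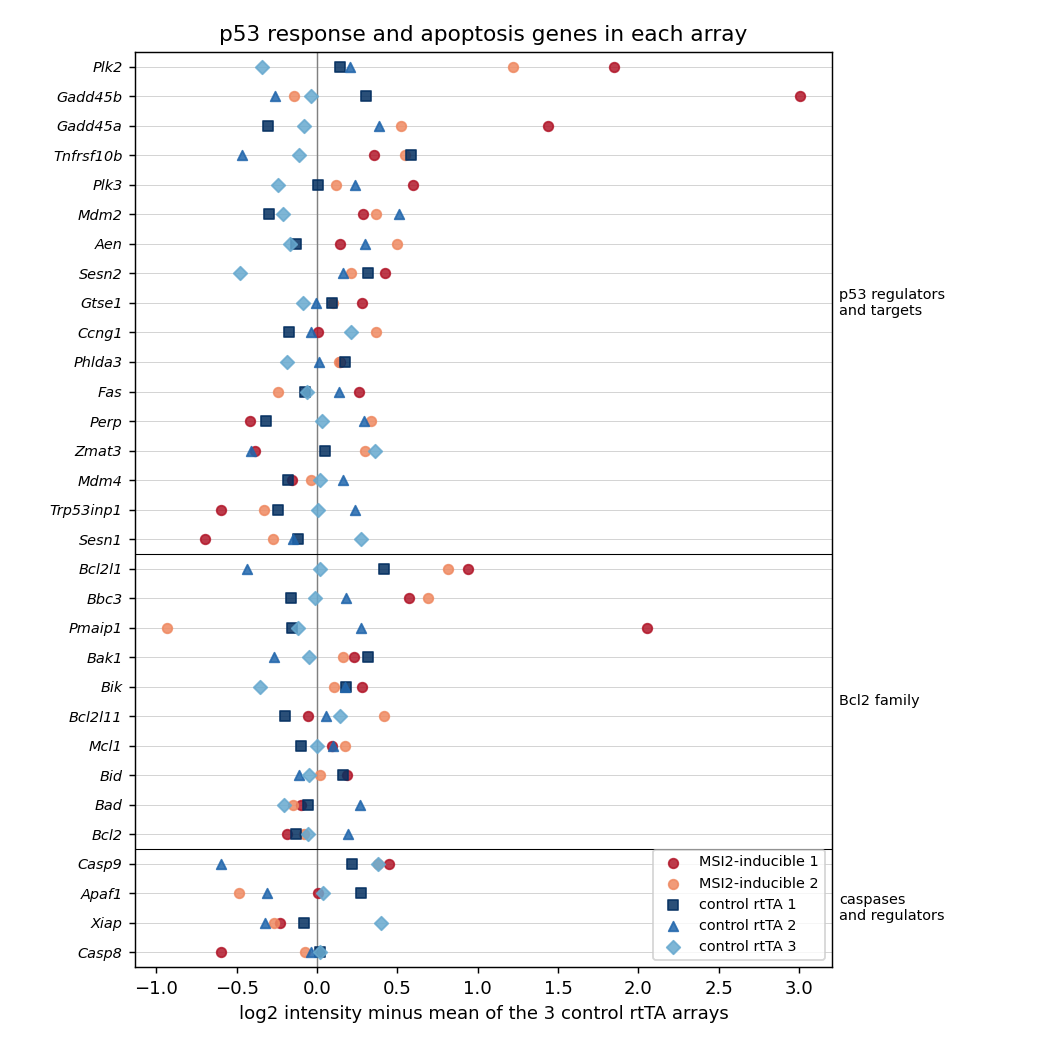
Log2 intensity of each measured member in each array, minus that gene's mean over the 3 control rtTA arrays (x axis), with 1 row per gene and the gene groups set apart by lines. Circles are the 2 MSI2-inducible arrays and the other symbols the 3 control rtTA arrays. Gadd45b and Pmaip1 lie far to the right in MSI2-inducible replicate 1 alone, whereas both MSI2-inducible arrays lie to the right for Plk2.

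The cells carried the stem and progenitor marker Kit at 8.80 and 9.50 in MSI2-inducible arrays and at 9.19, 9.35 and 9.66 in control arrays, and Ly6a, which encodes Sca1, was not analysed here. Of 7 stem and progenitor markers 2 were positive and 5 negative. An unadjusted limma p under 0.05 was reached by 2, both lower (28.6% of the list, beside 2.77% of all genes as lower). Slamf1, a surface marker of stem cells, was at 5.57 and 7.22 in MSI2-inducible arrays and at 7.36, 7.99 and 7.66 in control arrays (difference -1.27, adjusted p 0.883). The stem cell transcription factor gene Mecom differed by -0.58 (adjusted p 0.870), also with both MSI2-inducible arrays below all controls. The arrays of the other 5 overlapped. Kit differed by -0.25, Flt3 by 0.17, Procr by 0.09, Cd34 by -0.07 and Hlf by -0.26. Megakaryocyte markers had a summed intensity of 818 to 1022 in MSI2-inducible arrays and 1509 to 1845 in control arrays. Among these 4, Pf4 differed by -1.38 (adjusted p 0.616) and Vwf by -0.95 (adjusted p 0.461), each with both MSI2-inducible arrays below all controls. Itga2b differed by -0.07 and Gp9 by 0.11, and the arrays of both overlapped. The sum of 4 B cell markers was 440 and 209 in MSI2-inducible arrays and 223 to 241 in control arrays. None of these markers passed over all genes, and their part in the members' values was not tested. The T cell marker Cd3e was between 2.22 and 2.63 in all 5 arrays, below the median of all probe sets (5.57). Mouse Msi2 averaged 11.22 ± 0.30 in MSI2-inducible arrays (SD, n = 2) and 11.72 ± 0.04 in control arrays (SD, n = 3), a difference of -0.51 (limma adjusted p 0.883), and its probe set need not read the transgene. The arrays of MSI2-inducible mice differed from each other. The summed intensity of 9 mature neutrophil markers was 62444 in replicate 1 and 11743 in replicate 2, against 14228 to 26635 in control arrays. All 9 differed positively (50.4% of all genes), but the arrays of all 9 overlapped. Their median, relative to control means, was 1.99 in replicate 1 and -0.95 in replicate 2, against 0.33, -0.61 and 0.28 in control arrays. In RNA from pooled cells, a change in the number of cells of a type and a change in RNA per cell cannot be told apart. Immediate early and heat shock genes respond within minutes to handling and signals. Both MSI2-inducible arrays lay above all controls for 23 of 34 of them (9.27% of all genes) and below for 1 (9.39% of all genes). The arrays overlapped for 10. None of the 34 passed at an adjusted p of 0.05 (smallest 0.128). The list median, relative to control means, stood at 0.78 and 0.65 for the MSI2-inducible arrays and at -0.14, 0.22 and -0.16 for the controls in replicate order.

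Among the regulators of p53, Mdm2 was at 10.48 and 10.56 in MSI2-inducible arrays and at 9.89, 10.70 and 9.98 in control arrays. The arrays overlapped, because control replicate 2 was the highest of all 5. The difference was 0.33 (95% interval -0.37 to 1.03; limma adjusted p 0.931). Mdm4, the Mdm2 relative that masks p53, was at 9.78 and 9.90 in MSI2-inducible arrays and at 9.75, 10.10 and 9.95 in control arrays, a difference of -0.10 (-0.55 to 0.36).

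Plk2, a polo-like kinase first described as serum-inducible and also a p53 target, had the largest difference of any member. It was at 7.61 and 6.99 in MSI2-inducible arrays and at 5.91, 5.97 and 5.42 in control arrays. Every MSI2-inducible value was above every control value, and the gap between groups exceeded the spread within either. The difference was 1.53 (SE 0.28, 95% interval 0.85 to 2.22), a fold of 2.89, with a limma p of 0.0016 that did not pass over all genes (adjusted p 0.461). Plk3, its relative, was at 4.93 and 4.46 in MSI2-inducible arrays and at 4.34, 4.57 and 4.10 in control arrays, and the arrays overlapped. Its difference was 0.36 (-0.23 to 0.94).

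The Gadd45 genes encode small stress proteins that act on growth arrest and on MAP kinases. Gadd45a, a classic p53 target, was at 9.49 and 8.57 in MSI2-inducible arrays and at 7.75, 8.43 and 7.97 in control arrays. MSI2-inducible replicate 2 was above control replicate 2 by a small margin, and replicate 1 was well above both. The difference was 0.98 (95% interval 0.14 to 1.83; adjusted p 0.870), and it was 0.52 without MSI2-inducible replicate 1 and 1.44 without replicate 2. Gadd45b, known as a myeloid early response gene, was at 10.16 and 7.01 in MSI2-inducible arrays and at 7.45, 6.89 and 7.11 in control arrays. Only MSI2-inducible replicate 1 was high among the 5 arrays, and replicate 2 lay within the control range. The difference of 1.43 had an interval of -0.69 to 3.56 (adjusted p 0.912), and it was -0.14 without MSI2-inducible replicate 1 and 3.01 without replicate 2. Another of its 3 probe sets was at 9.79 and 6.26 in MSI2-inducible arrays. The last was at 6.44 and 6.45 in them, above its controls at 6.00, 5.97 and 6.41 (difference 0.32). Mature neutrophil markers were also highest in MSI2-inducible replicate 1, with Lcn2 at 11.47 in it and 6.94 in replicate 2, against 7.05 to 8.95 in control arrays. Summed markers of erythroid cells, B cells and macrophages were highest in that array too. Those of stem and progenitor cells, megakaryocytes, and mast cells and basophils were not. The part of these markers in the Gadd45b value was not tested.

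Immediate early and heat shock genes are given beside Plk2 and the Gadd45 genes, since these also answer to stress. Of the 34 genes 32 were positive and 19 had an unadjusted limma p under 0.05, all higher (2.87% of all genes), with a median difference of 0.75. The list was chosen with earlier results of these data known, so its counts are not independent of these data. Summed intensity of the list was 86458 to 94499 in MSI2-inducible arrays and 55390 to 69867 in control arrays. Egr2 (difference 2.17), Nr4a1 (2.74) and Cxcl2 (3.20) had the smallest p in the list, with adjusted p of 0.128, 0.195 and 0.195. The part of this list in the values of Plk2 and Gadd45a was not tested.

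Sestrins restrain mTORC1 signalling under stress. Sesn1 was at 9.21 and 9.63 in MSI2-inducible arrays and at 9.79, 9.75 and 10.18 in control arrays, so both MSI2-inducible values were below all controls. The difference was -0.48 (SE 0.23, 95% interval -1.05 to 0.08), with a limma p of 0.080 and an adjusted p of 0.911. All 4 of its probe sets were negative, between -0.51 and -0.33. Sesn2 differed the other way, averaging 6.90 ± 0.15 in MSI2-inducible arrays (SD, n = 2) and 6.58 ± 0.42 in control arrays (SD, n = 3), and its arrays overlapped (difference 0.32, SE 0.28). Trp53inp1, a p53 cofactor that promotes cell death and autophagy, was at 9.44 and 9.71 in MSI2-inducible arrays and at 9.79, 10.27 and 10.04 in control arrays. It was below all controls in both arrays (difference -0.46, interval -0.99 to 0.06, adjusted p 0.911), and its second probe set differed by -0.17.

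The other p53 targets differed by less than 0.5. Gtse1, a microtubule-binding protein that moves p53 out of the nucleus, was at 7.40 and 7.21 in MSI2-inducible arrays and at 7.21, 7.11 and 7.03 in control arrays. Its arrays did not overlap only by a narrow margin at control replicate 1, and its interval spanned 0 (-0.23 to 0.61). Aen, a nuclease that promotes apoptosis, differed by 0.32, cyclin G1 (Ccng1) by 0.19 and the Akt inhibitor Phlda3 by 0.14. Perp, a membrane protein of p53-driven death, differed by -0.04 and Zmat3, a zinc finger RNA-binding protein, by -0.04. The intervals of these 5 genes all spanned 0, and the widest, that of Zmat3, was -0.82 to 0.74. For the death receptors, Tnfrsf10b differed by 0.45 (interval -0.36 to 1.26), with control replicate 1 at 6.12 above both MSI2-inducible arrays at 5.89 and 6.09. Fas averaged 2.87 ± 0.35 in MSI2-inducible arrays (SD, n = 2) and 2.86 ± 0.12 in control arrays (SD, n = 3), under the median of all probe sets (5.57) in every array, and its difference was 0.01.

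**Figure D2:**
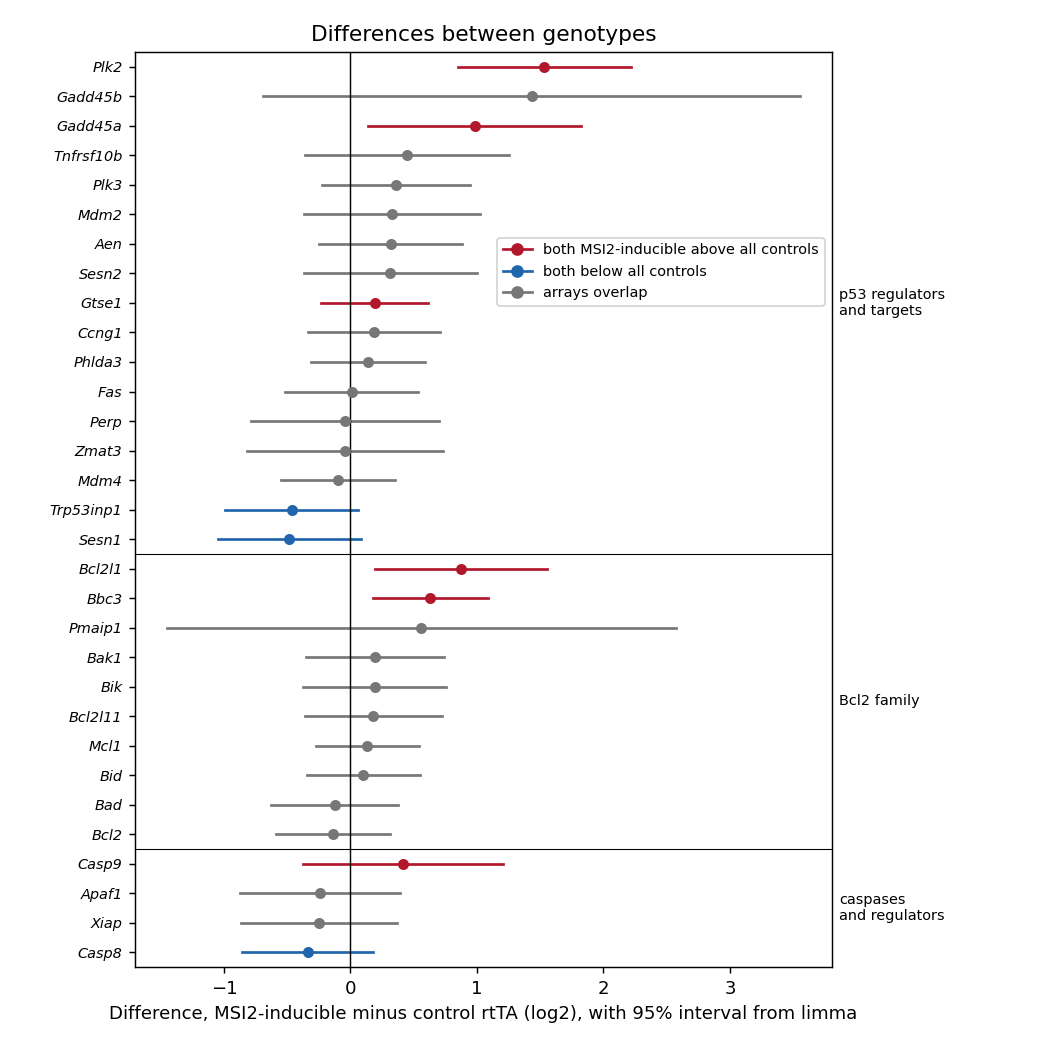
Difference of each measured member, MSI2-inducible minus control rtTA on the log2 scale (x axis), with bars for the 95% interval from limma. Colour shows whether both MSI2-inducible arrays lay above or below all 3 control arrays. The intervals of Plk2, Gadd45a, Bcl2l1 and Bbc3 lie above 0, and those of the other 27 members span it.

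In the Bcl2 family, 8 of 10 measured members were positive, with a median difference of 0.19, and the 2 that differed most were a survival gene and a death gene. Bcl2l1, whose main product Bcl-xL protects cells from mitochondrial death, was at 7.54 and 7.41 in MSI2-inducible arrays and at 7.01, 6.16 and 6.61 in control arrays. Both MSI2-inducible values were above all controls. The difference was 0.88 (SE 0.28, 95% interval 0.20 to 1.56), a fold of 1.84, with a limma p of 0.020 and an adjusted p of 0.870. Its 3 other probe sets differed by 0.31, 0.29 and -0.01, and the mean of all 4 by 0.37. Bcl-xL is known for its role in red cell survival in mice, and the erythropoietin receptor Epor was at 8.30 and 7.89 in MSI2-inducible arrays and at 7.24, 6.97 and 6.57 in control arrays. The erythroid and megakaryocyte factor gene Gata1 differed the other way, at 6.91 and 6.85 in MSI2-inducible arrays and at 7.61, 7.52 and 7.09 in control arrays (difference -0.53, adjusted p 0.886). Alas2, of heme synthesis, differed by -0.03, and its arrays overlapped. Klf1 differed by 1.68 and Slc4a1 by 1.95, also with overlapping arrays. Slc4a1 was at 10.29 in MSI2-inducible replicate 1 and 4.91 in replicate 2. Of 6 erythroid markers 4 were positive and 2 negative, with a summed intensity of 641 to 2390 in MSI2-inducible arrays and 444 to 725 in control arrays. Their part in the Bcl2l1 value was not tested.

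Bbc3, which encodes the p53-induced death protein Puma, was at 5.80 and 5.92 in MSI2-inducible arrays and at 5.06, 5.41 and 5.21 in control arrays. Both MSI2-inducible values were above all controls, and the groups differed by more than the spread within either. The difference was 0.63 (SE 0.18, 95% interval 0.18 to 1.08), with a limma p of 0.014 and an adjusted p of 0.835. All control values were under the median of all probe sets (5.57), and Bbc3 had 1 probe set. Pmaip1, the gene of the other p53-induced BH3-only protein Noxa, was at 6.05 and 3.06 in MSI2-inducible arrays and at 3.84, 4.26 and 3.88 in control arrays. The highest and the lowest of its 5 values were the 2 MSI2-inducible arrays, so the mean difference of 0.56 (interval -1.45 to 2.57) describes neither. The difference was -0.93 without MSI2-inducible replicate 1 and 2.06 without replicate 2. The summed neutrophil markers were highest of the 5 arrays in MSI2-inducible replicate 1 and lowest in replicate 2. The same order held for summed macrophage markers (1476 and 792, controls 955 to 1262) and B cell markers (440 and 209, controls 223 to 241). Among control arrays, replicate 2 had the highest Pmaip1 value (4.26) and the lowest summed neutrophil markers (14228). The part of these markers in the Pmaip1 value was not tested.

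In the probe sets used, the survival genes Mcl1 and Bcl2 differed little. Mcl1 was at 12.35 and 12.43 in MSI2-inducible arrays and at 12.16, 12.36 and 12.26 in control arrays, a difference of 0.13 (interval -0.28 to 0.54). All 6 of its probe sets were positive, between 0.13 and 0.51. Bcl2 was at 12.34 and 12.44 in MSI2-inducible arrays and at 12.39, 12.72 and 12.47 in control arrays. Its difference was -0.14 (interval -0.59 to 0.31), and 4 of its 5 probe sets were negative. Those not used differed by -0.54, 0.04, -0.64 and -0.77, and the mean of all 5 by -0.41. Of the remaining family members, Bim (Bcl2l11) differed by 0.18, the pore former Bak1 by 0.20, the BH3-only genes Bik, Bid and Bad by 0.19, 0.10 and -0.12. The arrays of these 5 genes overlapped, and every interval spanned 0.

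Caspases and their regulators differed both ways, with 1 of 4 positive and a median of -0.24. Casp9, the initiator of the mitochondrial route, was at 8.88 and 8.81 in MSI2-inducible arrays and at 8.65, 7.83 and 8.81 in control arrays. MSI2-inducible replicate 2 was hardly above control replicate 3, and the difference of 0.42 (interval -0.37 to 1.20) was 0.12 without the low control replicate 2. Casp8, the initiator at death receptors, was at 9.70 and 10.23 in MSI2-inducible arrays and at 10.32, 10.26 and 10.32 in control arrays. Both were below all controls, replicate 1 by far more than replicate 2 (difference -0.34, interval -0.85 to 0.18, adjusted p 0.916), and the difference was -0.07 without replicate 1. Apaf1, the scaffold that activates Casp9, differed by -0.24 (SE 0.26) and Xiap, the caspase inhibitor, by -0.25 (interval -0.86 to 0.37), and the arrays of both overlapped.

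The medians of the 3 gene groups were also read in each array, relative to control means. For p53 regulators and targets they were 0.26 and 0.21 in the MSI2-inducible arrays and -0.07, 0.16 and -0.08 in the control arrays, which did not overlap. The Bcl2 family median was 0.21 and 0.14 in the MSI2-inducible arrays and -0.08, 0.14 and -0.05 in the control arrays. For both gene groups control replicate 2 was close to the MSI2-inducible arrays. It was also the control array with the highest median of immediate early and heat shock genes (0.22) and the lowest summed neutrophil markers (14228). As a measure of RNA quality, log2 signal at the 3′ end less that at the 5′ end was read. For Gapdh it was 2.60 in control replicate 2, 2.14 and 2.40 in the other controls and 2.22 in both MSI2-inducible arrays. For beta-actin it was -0.15, against -0.15 and 0.01 in the other controls. The part of any of these in the medians was not tested. The caspase group was at -0.11 and -0.17 in the MSI2-inducible arrays and at 0.12, -0.32 and 0.21 in the control arrays, with control replicate 2 the lowest.

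**Figure D3:**
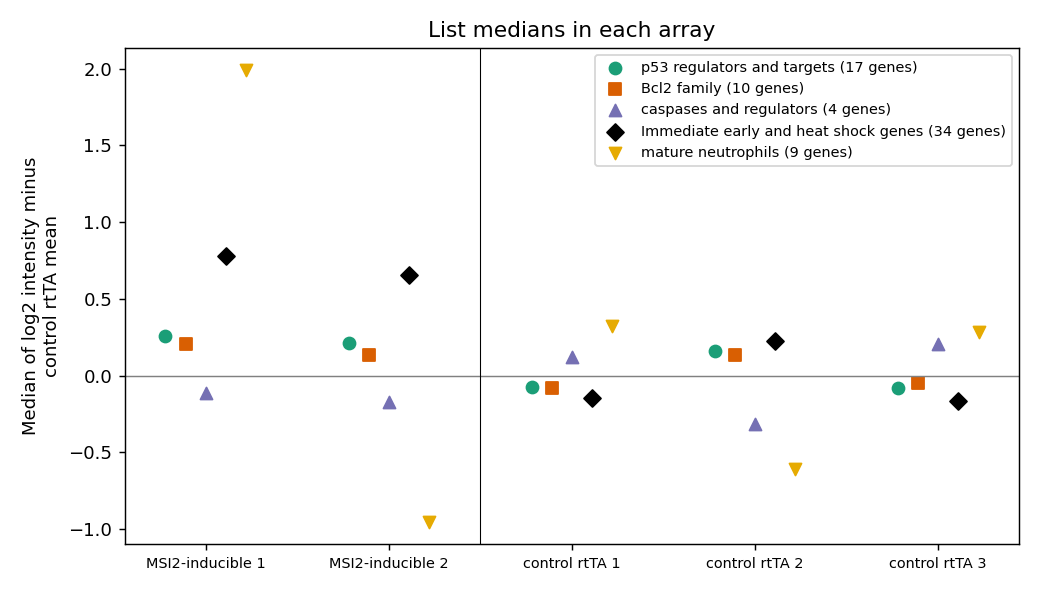
Median over each gene list of the log2 intensity minus the gene's control rtTA mean (y axis), for each of the 5 arrays, with the MSI2-inducible arrays left of the line. Medians of p53 regulators and targets lie between -0.08 and 0.26. Those of mature neutrophil markers lie at 1.99 and -0.95 in the 2 MSI2-inducible arrays.

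The MSI2-inducible arrays were compared with each other for each member to show how far a single array carried a value. The median size of the gap between them was 0.21 over members and 0.30 over all genes. A gap over 1 was seen for 2 members, Gadd45b and Pmaip1, which is 6.45% of members against 8.16% of all genes.

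Most members were read by several probe sets, and these differed. Of 21 members with more than 1 probe set, 10 had all probe sets on the same side of 0 and 11 had both signs. Among the 10 were Plk2, Gadd45b, Sesn1, Trp53inp1, Mcl1 and Casp9. The second Plk2 probe set differed by 0.18, and its values, from 1.69 to 2.36, were under the median of all probe sets. Over all 81 member probe sets tested on their own, 49 were positive, 0 passed at an adjusted p of 0.05, and 8 had an unadjusted limma p under 0.05, or 9.88%, against 5.72% of 34945 probe sets tested.

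**Figure D4:**
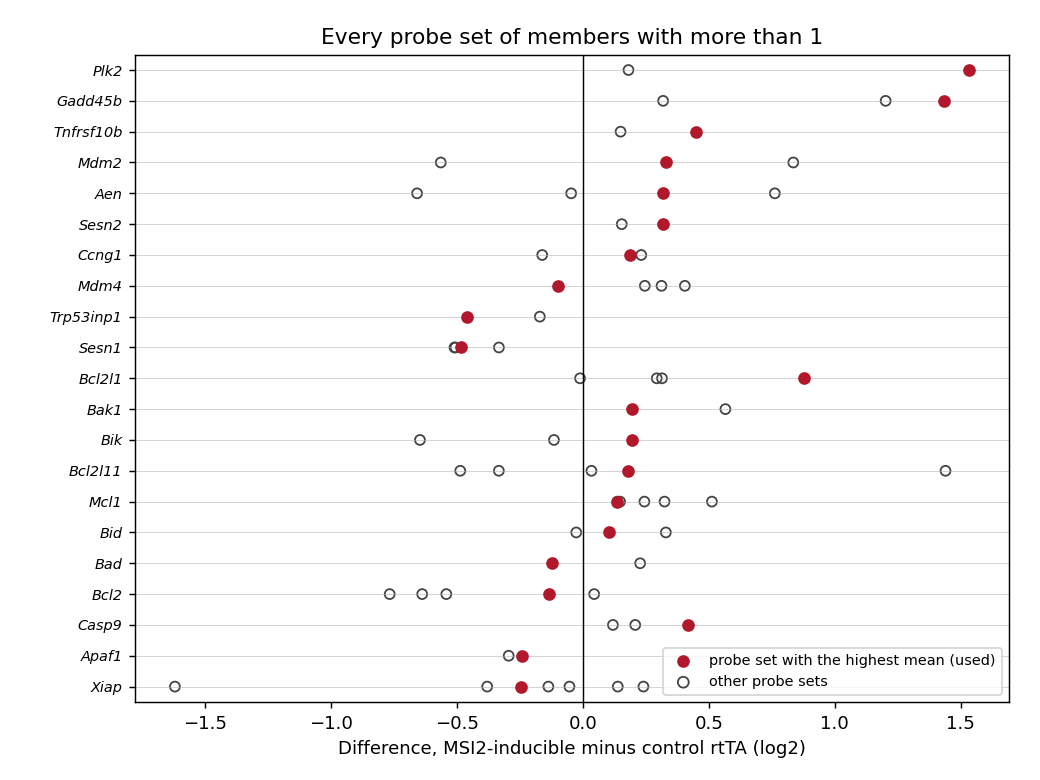
Difference of every probe set of the 21 members with more than 1, MSI2-inducible minus control rtTA on the log2 scale (x axis), with 1 row per gene. Filled points are the probe sets used here and open points the others. Probe sets of Xiap spread from -1.62 to 0.24 and those of Bcl2l11 from -0.49 to 1.44, whereas the 4 of Sesn1 lie together.

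Other genes of the pathway were read from lists of known p53 targets, p53 regulators and apoptosis genes, and none passed over all genes. Of 23 further p53 targets with a value, 13 were positive and 10 negative, with a median difference of 0.03. Cdkn1a, the p21 inhibitor that carries out p53-driven cell cycle arrest, was at 8.39 and 8.96 in MSI2-inducible arrays and at 8.07, 6.55 and 7.71 in control arrays. Its arrays did not overlap, and the difference was 1.23 (95% interval 0.07 to 2.40, adjusted p 0.883). Btg2, an antiproliferative gene that is also immediate early, differed by 0.76 and the metabolic regulator Tigar by 0.54, with both MSI2-inducible arrays above all controls. An unadjusted limma p under 0.05 was reached by 2 of the 23, Btg2 and Cdkn1a, both higher. That is 8.70% of the list, beside 2.87% of all genes as higher and 5.64% in either direction, and nothing is read from it about the list.

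Of 22 p53 regulators and DNA damage kinases, 14 were positive and 8 negative, with a median of 0.08, and 0 had an unadjusted limma p under 0.05. The smallest p in that list were those of the p53 inhibitor Ppp1r13l (difference 0.77), the acetyltransferase Kat5 (-0.54) and the checkpoint kinase Chek1 (0.47), with adjusted p between 0.907 and 0.911. Of 27 further apoptosis genes, 13 were positive and 14 negative, with a median of -0.0017. Fadd, the adaptor between death receptors and Casp8, was at 9.18 and 9.14 in MSI2-inducible arrays and at 10.17, 9.70 and 9.71 in control arrays. Both MSI2-inducible values were below all controls, and the difference was -0.70 (95% interval -1.22 to -0.18, adjusted p 0.857). The executioner Casp6 differed by 0.83 and the survival gene Bcl2l2 by -0.61, with arrays that did not overlap (adjusted p 0.911 for both).

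The count of members at an unadjusted p depended on single arrays. Without MSI2-inducible replicate 1 it was 2 higher (Bbc3 and Plk2) and 1 lower (Pmaip1), where 5.19% of all genes reached that p. Without MSI2-inducible replicate 2 it was 4 higher (Gadd45a, Gadd45b, Plk2 and Pmaip1) and 1 lower (Casp8), where 12.5% of all genes did. Dropping control rtTA replicate 1 gave 3 higher (Bcl2l1, Plk2 and Tnfrsf10b; 4.55% of all genes). Dropping control replicate 2 gave 5 higher (Bbc3, Bcl2l1, Gadd45a, Mdm2 and Plk2; 5.32%), and dropping control replicate 3 gave 2 higher (Bbc3 and Plk2; 3.99%). Plk2 was among them in all 5 fits that left out an array, with differences from 1.22 to 1.85. The difference ranged from 0.55 to 0.72 for Bbc3 and from 0.66 to 1.08 for Bcl2l1 over the same fits.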

How the data were processed

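RNA from 5 samples was amplified and hybridised to Affymetrix mouse arrays, per the labels' protocols. Linear probe set intensities were deposited. Per the submitters' processing notes the authors used RMA and affy in R 2.11.0; how values returned to linear scale is not given. Array medians were 46.4 to 48.3 intensity units. The log2 of the deposited intensity was taken, with no pseudocount, which leaves values near the floor uncertain. Of 45101 probe sets, 34958 had 1 symbol, 932 several and 9211 were unnamed here; symbols of genes other than the 33 were updated by Entrez ID (34754 matched a GRCm38.p6 gene table), and 64 control probe sets were left out.

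The comparison used lmFit and eBayes of limma 3.58.1 (R 4.3.3), two-sided, with group as the only term, with Benjamini-Hochberg adjustment over 18193 genes and 95% intervals. The fit was run on simulated data with errors independent between genes and arrays, so effects shared across an array were not covered. Members, lists and probe sets were chosen with earlier results of these data known. The genes named are all members, Msi2, Cdkn1a, the 3 genes with the smallest p in each of 4 pathway lists, and marker genes. The number of arrays limits the precision. Same-numbered arrays were not treated as pairs. Alternatives covered the value per gene, low values, normalization, the variance model, array weights, the block and each array left out. RefSeq upstream sequences were matched by symbol for 25 of the 31 members. Figures were drawn with matplotlib 3.10.9.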

Additional observations from a re-analysis of the deposited data

How the results depend on the processing

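No member passed limma's adjusted p of 0.05 under any of the alternatives run, where the smallest adjusted p of a member was 0.225, nor at a threshold of 0.10. Over all genes, the 3 higher became 1 with array weights and 0 with the replicate block, and 0 to 0 when single arrays were dropped; a lone MSI2-inducible array was then assumed to vary like the controls. The 1 lower became 2 when genes with low values were dropped, 2 after a further quantile normalization, 3 at an adjusted p of 0.10, 0 with the replicate block and 0 to 0 with single arrays dropped. Medians of the 3 gene groups kept their sign and moved by less than the SD over control arrays. Replicate numbers are shared by only 2 pairs, with correlations of deviations of 0.134 and 0.0989, and no label pairs them; with the block 2 members, Plk2 and Bcl2l1, had an unadjusted p under 0.05 (6.45% of members, beside 5.88% of all genes in that fit), against 4 without it. Control replicate 3 has no partner and adds nothing to that fit.

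Of the 31 members, 21 kept their direction in every alternative and 10 turned in at least 1, none of them past the test. With the mean of probe sets, Mdm4 (0.22), Bad (0.0512) and Bik (-0.19) turned, and without _x_at and _s_at probe sets Bik (-0.65). Array weights turned Perp (0.0277), and the replicate block Fas (-0.0212) and Zmat3 (0.14). With an array left out, ranges crossed 0 for Pmaip1 (-0.93 to 2.06), Gadd45b (-0.14 to 3.01), Fas (-0.24 to 0.26), Perp (-0.42 to 0.34), Zmat3 (-0.39 to 0.30), Bcl2l11 (-0.0538 to 0.41), Bad (-0.23 to 0.00905) and Apaf1 (-0.49 to 0.00757). With the mean of probe sets, Plk2 differed by 0.86 and Bcl2l1 by 0.37. For these changes the cause was not tested. Low signal limits Fas, Pmaip1, Plk3, Bbc3 and Bik, each with a mean below the probe set median.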

Other observations

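Some probe sets of members stood apart from the one used for the gene, and they were chosen after their values were seen. A Bcl2l11 probe set was at 5.23 and 5.86 in MSI2-inducible arrays and at 4.40, 4.17 and 3.74 in control arrays, differing by 1.44 (limma adjusted p 0.578 over all probe sets). The probe set used for that gene differed by 0.18. A Mdm2 probe set was at 9.31 and 9.11 in MSI2-inducible arrays and at 8.55, 8.16 and 8.42 in control arrays, a difference of 0.84 (adjusted p 0.645), while another differed by -0.56. A Xiap probe set was at 5.51 and 5.61 in MSI2-inducible arrays and at 6.68, 8.27 and 6.59 in control arrays, a difference of -1.62 (adjusted p 0.843), while the other 6 lay between -0.38 and 0.24. Whether these probe sets read particular transcript forms was not tested.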
